A study of Mus musculus with 32 samples.

Results

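The comparison set 4 striatum libraries from mice that received CI-994 and contextual fear conditioning (HDACi CFC) against 4 striatum libraries from mice that received CI-994 and the conditioning chamber without shock (HDACi Context). These are 8 of the 32 libraries of the study, chosen by their labels, and all genes were examined. All mice were male C57BL/6J aged 12 weeks. CI-994 blocks class I histone deacetylases (HDACi stands for histone deacetylase inhibitor) and was given intraperitoneally at 30 mg/kg 1 h before behaviour, and both groups carried it. Conditioning consisted of 3 min of habituation followed by 2 foot shocks of 0.2 mA, each lasting 1 s and 29 s apart. HDACi Context mice spent the same time in the chamber with no shock. Tissue was collected 1 h later from a single hemisphere. The vehicle groups named beside the comparison (Veh CFC and Veh Context, 4 striatum libraries each) received the solvent with the same behaviour, and 16 hippocampus libraries had the same 4 treatments. Each library is 1 region of 1 mouse, and whether equally numbered striatum and hippocampus libraries share an animal is not stated. Cages were not split between behaviours, and cage and conditioning cannot be told apart here.

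The striatum is built largely of medium spiny neurons, which release GABA and divide into cells carrying the dopamine receptor Drd1 and cells carrying Drd2. When neurons fire, immediate early genes such as Fos, Junb, Arc and Egr1 are transcribed within minutes from promoters that already hold transcription factors such as CREB and SRF, and a second wave of effector genes such as Bdnf and Homer1 follows. Histone deacetylases remove acetyl groups from histones, and inhibitors of the class I enzymes raise histone acetylation. Contextual fear conditioning pairs a place with foot shock and is used as a test of memory that depends on the hippocampus. The comparison asks which transcripts differed in striatum between shocked and unshocked mice when the inhibitor was present in both.

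Total counts were 28525886, 28377319, 27789511 and 31208658 in HDACi CFC replicates 1 to 4 and 30296174, 27634940, 33541750 and 32532229 in HDACi Context replicates 1 to 4. Levels are given as CPM, the counts of a gene scaled to a common library total, always in the order of replicates 1 to 4. Drd1 stood at 249.95 to 374 CPM in the HDACi CFC libraries and at 332 to 398 CPM in the HDACi Context libraries. In the hippocampus libraries of CI-994-treated mice, Drd1 ran from 3.00 to 4.39 CPM. All 8 libraries thus carried Drd1, a marker of part of the medium spiny neurons, well above the hippocampal level. Lct, a lactase gene on the hippocampal marker list, was at no more than 0.211 CPM in the 8 libraries and at 71.9 to 116 CPM in hippocampus.

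HDACi CFC replicates 2 and 4 stood apart from replicates 1 and 3 in their neuronal markers. Slc17a7, the vesicular glutamate transporter of cortical and hippocampal excitatory neurons (ENSMUSG00000070570, mm10 chromosome 7, bases 45163949 to 45176142, plus strand), stood at 15.8, 257, 3.42 and 259 CPM in HDACi CFC libraries and at 19.2, 27.3, 16.99 and 41.5 CPM in HDACi Context libraries. Replicates 2 and 4 of HDACi CFC were far above all 6 other libraries, and replicate 3 of HDACi CFC was the lowest, so the HDACi CFC range enclosed that of HDACi Context. Its log2 fold change was 2.27 (SE 1.21, adjusted p = 0.839 by edgeR's quasi-likelihood test with Benjamini-Hochberg adjustment over all genes). With replicates 2 and 4 of HDACi CFC left out, it was -1.44 for Slc17a7. In hippocampus Slc17a7 ran from 793 to 1105 CPM. The vehicle groups held such libraries too, with Slc17a7 at 3.63, 15.8, 348 and 52.9 CPM in Veh CFC and at 109, 24.3, 32.9 and 188 CPM in Veh Context. The medians of the gene lists are given with and without HDACi CFC replicates 2 and 4.

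No gene passed the test. With edgeR's quasi-likelihood test and Benjamini-Hochberg adjustment, 0 of 18256 genes had adjusted p under 0.05 (0% called), and the smallest adjusted p was 0.839. At an unadjusted p under 0.05 there were 988 genes (5.41%), 482 of them higher (2.64%) and 506 lower (2.77%) in HDACi CFC. DESeq2's Wald test called 2 of 18239 genes (0.011%), both lower, and they are described further on. In vehicle mice, Veh CFC against Veh Context also gave 0 calls by edgeR (0% called), with 216 genes (1.18%) at an unadjusted p under 0.05. That number was 923 without Veh CFC replicate 3, 330 without Veh CFC replicate 1 and 387 without Veh Context replicate 1. The difference between the drug and vehicle comparisons was tested directly and gave 0 calls (0% called, 380 genes or 2.08% at an unadjusted p under 0.05). The number was 981 without Veh CFC replicate 3 and 619 without HDACi CFC replicate 1. The difference of the HDACi comparison between striatum and hippocampus gave 0 calls among 19198 genes (0% called, 752 genes or 3.92% at an unadjusted p under 0.05, smallest adjusted p 0.965). That number was 1131 without striatum HDACi CFC replicate 1.

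The precision behind this absence of calls can be read from the fitted intervals. For 16114 of the 18256 genes (88.3%) the 95% interval of the fold change lay within a 2-fold change in either direction, and for 12226 genes (67%) it lay within 1.5-fold. Of 10161 genes over 3 log2 CPM, 98.3% had an interval within 2-fold and 91.8% within 1.5-fold. The median standard error was 0.139 log2 over all genes and 0.0959 over the better measured ones. Genes over 3 log2 CPM that ranged more than 2-fold within a group numbered 244 in HDACi CFC and 72 in HDACi Context. They numbered 426 in Veh CFC and 172 in Veh Context, whose libraries are in the same fit. Among the same genes over 3 log2 CPM, pairs of HDACi CFC libraries differed by more than 2-fold in 6 between replicates 1 and 3 and in 44 between replicates 2 and 4, but in 62 to 206 between the other pairs.

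**Figure D1:**
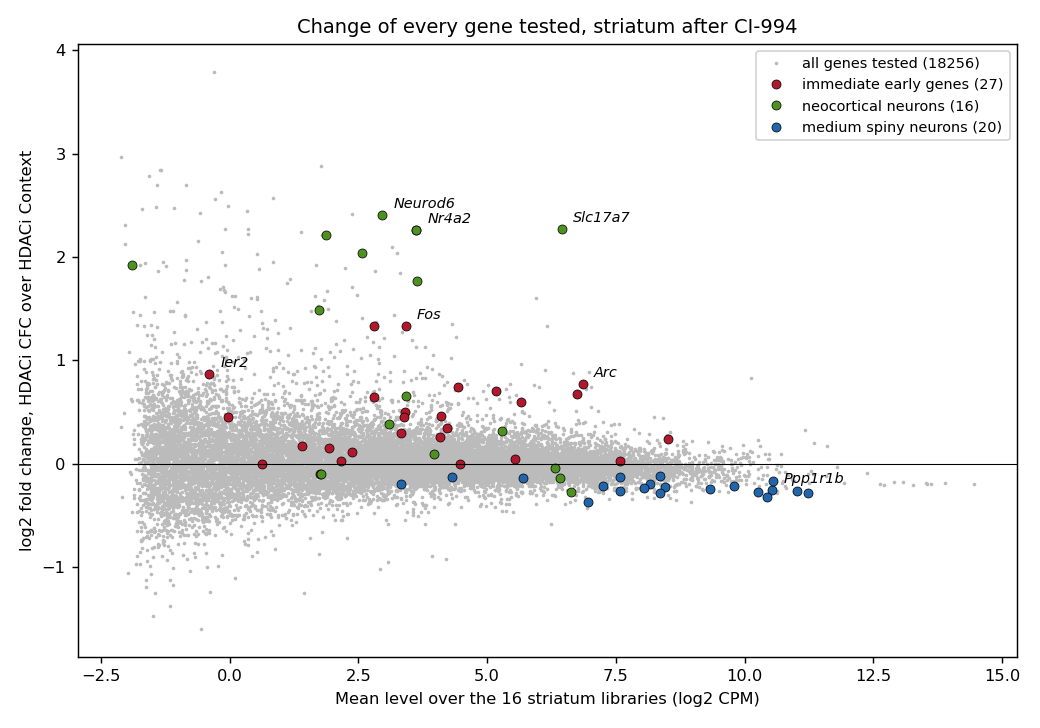
Log2 fold change of HDACi CFC over HDACi Context for each gene (y axis) against its mean level over the 16 striatum libraries in log2 CPM (x axis), with 27 immediate early genes, 16 neocortical markers and 20 medium spiny markers coloured. The medium spiny markers lie just below 0, most immediate early genes lie above it, and several neocortical markers lie far above it, although none passed the test.

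Immediate early genes had the most one-sided values of the activity lists. Of 28 listed genes 27 were tested, 0 passed the test, 24 had a log2 fold change above 0 and 3 below it. Their median log2 fold change was 0.45, against 0.00 over all genes tested. Log2 CPM of the list averaged 3.81, 3.98, 3.97 and 3.76 in the HDACi CFC libraries and 3.20, 3.65, 3.41 and 3.46 in the HDACi Context libraries. On that mean, as on that of the oligodendrocyte markers, all 4 HDACi CFC libraries were above all 4 HDACi Context libraries. The 8 vehicle libraries spanned 3.03 to 4.11 on the immediate early mean. In 6 genes (Fos, Fosl2, Junb, Nr4a3, Ier2 and Dusp1) the HDACi CFC libraries did not overlap the HDACi Context libraries and were higher, a pattern that 1.22% of all genes had, and 0 had the opposite pattern, which 1.58% of all genes had. At an unadjusted p under 0.05 there were 5 higher genes (Fos, Jun, Junb, Ier2 and Btg2), against 2.64% of all genes, and 0 lower. Of these, Jun was highest in HDACi CFC replicates 2 and 4. It stood at 7.64, 16.8, 8.78 and 10.96 CPM in HDACi CFC and at 6.54, 9.77, 6.20 and 7.59 CPM in HDACi Context.

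The list median stayed above 0 with the libraries high in cortical markers left out. It was 0.35 without HDACi CFC replicate 2, 0.46 without replicate 4 and 0.31 without both. With both left out, 24 of the 27 genes were above 0. Replicates 1 and 2 alone gave 0.40, and replicates 3 and 4 alone gave 0.46. The same median was 0.11 for Veh CFC against Veh Context and 0.09 for HDACi CFC against HDACi Context in hippocampus. These medians are descriptions, with no test of the list.

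Fos encodes a subunit of the AP-1 transcription factor and is the usual marker of recently active neurons (ENSMUSG00000021250, mm10 chromosome 12, bases 85473890 to 85477273, plus strand). It stood at 10.7, 17.6, 13.8 and 11.1 CPM in HDACi CFC libraries and at 4.26, 5.32, 5.37 and 5.44 CPM in HDACi Context libraries. All 4 HDACi CFC libraries were higher than all 4 HDACi Context libraries, and the highest was replicate 2. Fos averaged 13.3 ± 3.17 CPM in HDACi CFC and 5.10 ± 0.561 CPM in HDACi Context (SD, n = 4 each). The fitted fold was 2.52 (log2 fold change 1.33, 95% interval 0.27 to 2.39), and it did not pass the test (adjusted p = 0.839 by edgeR's quasi-likelihood test with Benjamini-Hochberg adjustment). With only these 8 libraries in the edgeR fit, Fos had the smallest adjusted p of all genes, at 0.0856.

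In vehicle mice Fos did not separate by behaviour. It stood at 26.5, 8.68, 16.3 and 3.12 CPM in Veh CFC libraries and at 22.9, 6.39, 6.35 and 7.94 CPM in Veh Context libraries, so the groups overlapped and both spanned a wider range than either HDACi group. The vehicle log2 fold change was 0.32, and the difference between the HDACi and vehicle values was 1.01 (SE 0.69, adjusted p = 1, edgeR). Set against hippocampus, where Fos ran from 7.68 to 12.4 CPM in CI-994-treated mice, the difference of the log2 fold changes was 0.83 (SE 0.59, adjusted p = 1, edgeR). Veh CFC replicate 1, with the highest Fos of the 16 striatum libraries, had 3.63 CPM of Slc17a7, near the bottom of that gene's range. HDACi CFC replicate 2, with the highest Fos of its group, had 257 CPM of Slc17a7. Whether the 2 genes are related across libraries was not tested. The log2 fold change of Fos was 1.26 with replicates 2 and 4 of HDACi CFC left out.

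**Figure D2:**
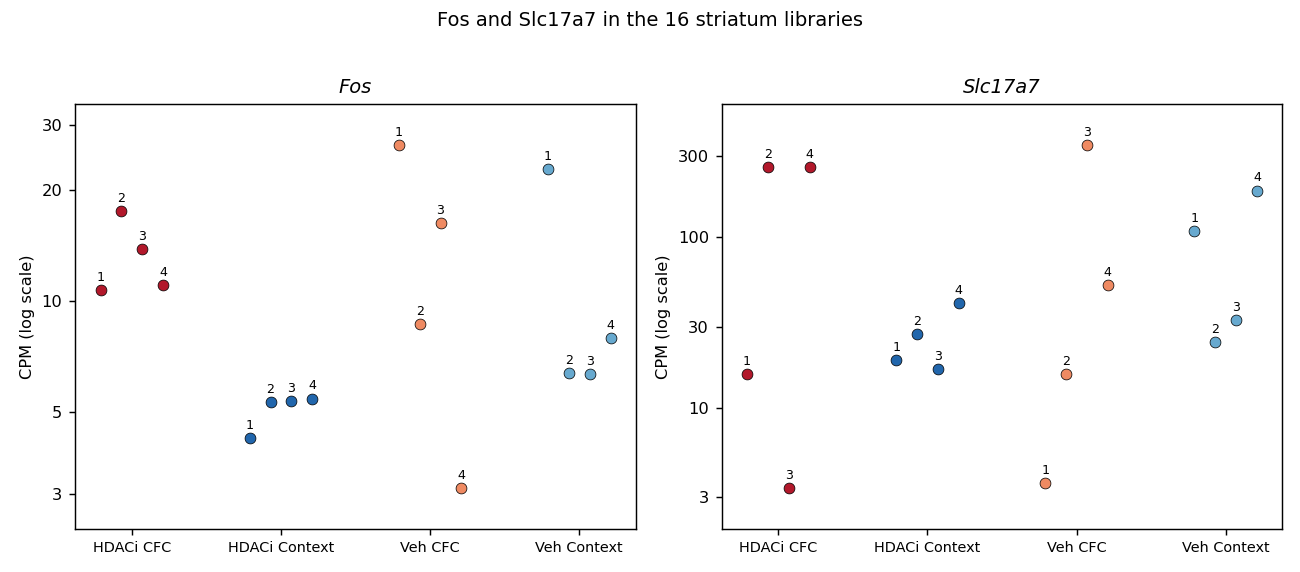
CPM on a log scale (y axis) of Fos and of Slc17a7 in each of the 16 striatum libraries, by group (x axis, numbers are replicates). For Fos the 4 HDACi CFC points lie above the 4 HDACi Context points, whereas for Slc17a7 HDACi CFC replicates 2 and 4 lie far above replicates 1 and 3.

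The promoters of Fos, Junb and Dusp1 are shown because these are the genes, among the 15 chosen activity and deacetylase genes, whose groups did not overlap and for which RefSeq (build GRCm38.p6) gave a promoter. The groups of Sik1 did not overlap either. This choice was made with their values known. Each sequence is the 250 bases before the start site, 5′ to 3′ on the gene's strand, and capitals mark the CREB core motif CGTCA or its reverse complement TGACG, alone or within the full cAMP response element TGACGTCA.
Fos: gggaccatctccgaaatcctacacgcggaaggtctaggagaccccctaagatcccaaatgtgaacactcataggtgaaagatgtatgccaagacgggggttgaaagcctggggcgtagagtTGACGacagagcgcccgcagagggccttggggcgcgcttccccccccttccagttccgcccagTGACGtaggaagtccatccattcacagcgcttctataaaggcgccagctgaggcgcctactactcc
Junb: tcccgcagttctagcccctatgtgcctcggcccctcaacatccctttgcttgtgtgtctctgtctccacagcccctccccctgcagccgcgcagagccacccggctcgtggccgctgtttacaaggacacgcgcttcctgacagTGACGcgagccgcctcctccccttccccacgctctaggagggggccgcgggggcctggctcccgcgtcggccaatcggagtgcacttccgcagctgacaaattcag
Dusp1: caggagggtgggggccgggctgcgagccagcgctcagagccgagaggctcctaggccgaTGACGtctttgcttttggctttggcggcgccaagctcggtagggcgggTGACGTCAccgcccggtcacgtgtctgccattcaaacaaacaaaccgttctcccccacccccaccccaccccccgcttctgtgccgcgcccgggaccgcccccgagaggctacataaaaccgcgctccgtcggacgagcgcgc
The Fos window is chr12:85473640-85473889 on the plus strand, the Junb window is chr8:84978749-84978998 on the minus strand and the Dusp1 window is chr17:26508473-26508722 on the minus strand. The full element occurred 1 time in Dusp1 and was not among the letters of the Fos and Junb windows, and 1.55% of 32851 RefSeq promoter windows of this length held it on either strand. The core motif occurred 2 times in Fos, 1 time in Junb and 3 times in Dusp1, of which the full element accounts for the overlapping pair, and 17.8% of the windows held it. The CArG box, the SRF motif, occurred 0 times in these windows and in 1.47% of all of them. Bases further than 250 from the start site were not searched, so motifs there would not be counted.

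Junb encodes a partner of Fos in AP-1 (ENSMUSG00000052837). It stood at 8.62, 8.95, 8.53 and 5.32 CPM in HDACi CFC libraries and at 2.34, 4.74, 2.62 and 2.46 CPM in HDACi Context libraries. The lowest HDACi CFC library, replicate 4, was just above the highest HDACi Context library, replicate 2. The log2 fold change of Junb was 1.33 (SE 0.55, adjusted p = 0.839, edgeR quasi-likelihood test). Without HDACi CFC replicates 2 and 4 it was 1.499. Junb overlaps Prdx2 on the opposite strand, and the strand setting of the counting is not given in the sources used here, so reads of the pair may be mixed.

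Fosl2, another AP-1 subunit, stood at 61.4, 58.1, 77.3 and 50.9 CPM in HDACi CFC libraries and at 29.6, 41.8, 43.5 and 44.5 CPM in HDACi Context libraries. The groups did not overlap, with a log2 fold change of 0.59 (SE 0.35). Nr4a3, an orphan nuclear receptor induced by activity, stood at 33.9, 34.4, 54.7 and 36.6 CPM in HDACi CFC and at 17.8, 22.9, 26.9 and 27.7 CPM in HDACi Context. Again all HDACi CFC libraries were higher, with replicate 3 well above the rest, and the log2 fold change of Nr4a3 was 0.70 (SE 0.35). Ier2, a small immediate early transcription regulator, was at a low level, with 0.806, 1.09, 0.864 and 1.06 CPM in HDACi CFC and with 0.429, 0.796, 0.358 and 0.461 CPM in HDACi Context. HDACi Context replicate 2 came closest to the HDACi CFC range in Ier2, and the log2 fold change was 0.87 (SE 0.30, adjusted p = 0.839, edgeR).

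Dusp1 is a phosphatase that switches MAP kinases off. It stood at 22.9, 19.9, 24.1 and 18.5 CPM in HDACi CFC libraries and at 15.6, 17.8, 15.2 and 16.9 CPM in HDACi Context libraries. The groups did not overlap, but HDACi CFC replicate 4 and HDACi Context replicate 2 were close, and the log2 fold change was 0.34 (SE 0.19, adjusted p = 0.839, edgeR). Its annotation overlaps other genes on both strands, so its count is uncertain. Fosb, a further AP-1 gene, stood at 17.9, 15.3, 22.7 and 17.2 CPM in HDACi CFC libraries and at 11.4, 13.3, 12.1 and 14.7 CPM in HDACi Context libraries. These CPM did not overlap, although with TMM scaling they did, and the log2 fold change of Fosb was 0.46 (SE 0.27).

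Other well known activity genes overlapped between the groups. Arc, a regulator of synaptic strength, stood at 169, 193, 147 and 101 CPM in HDACi CFC libraries and at 65.2, 122, 79.9 and 80.7 CPM in HDACi Context libraries. HDACi CFC replicate 4 was within the HDACi Context range, and the log2 fold change of Arc was 0.77 (SE 0.46, 95% interval -0.21 to 1.75, edgeR). Nr4a1, a nuclear receptor induced by activity, stood at 154, 129, 159.8 and 97.9 CPM in HDACi CFC and at 58.3, 112, 76.3 and 84.5 CPM in HDACi Context. Here too replicate 4 of HDACi CFC and replicate 2 of HDACi Context overlapped, and the log2 fold change was 0.67 (SE 0.37). Egr2, a zinc finger factor of the same early wave, stood at 25.0, 23.9, 31.9 and 15.0 CPM in HDACi CFC and at 8.42, 20.6, 11.9 and 14.7 CPM in HDACi Context, with the same pair overlapping (log2 fold change 0.75, SE 0.40).

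Egr1, the most abundant zinc finger gene named here, stood at 466, 409, 482 and 346 CPM in HDACi CFC and at 252, 443, 325 and 379 CPM in HDACi Context. HDACi Context replicate 2 was above 2 of the HDACi CFC libraries in Egr1, and the log2 fold change was 0.25 (95% interval -0.25 to 0.74, edgeR). Npas4, a factor induced by calcium entry in neurons, stood at 26.05, 16.2, 27.7 and 13.7 CPM in HDACi CFC and at 10.6, 25.5, 11.7 and 20.7 CPM in HDACi Context. The libraries of both groups were interleaved, with a log2 fold change of 0.26 (95% interval -0.62 to 1.13, edgeR). Klf10, Maff and Zfp36 were the 3 genes at or below 0, with Zfp36, an RNA-binding protein that shortens the life of mRNAs, at -0.10. HDACi Context replicate 1 was the lowest of the 8 libraries in Fos, Junb, Arc, Nr4a1, Egr1, Egr2 and Npas4, and without it the list median was 0.405. Part of the list is shared with cortical neurons: Nr4a2, also a neocortical marker, stood at 1.51, 25.7, 1.33 and 20.3 CPM in HDACi CFC and at 2.61, 1.59, 2.47 and 2.98 CPM in HDACi Context, high in the replicates in which Slc17a7 was high.

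**Figure D3:**
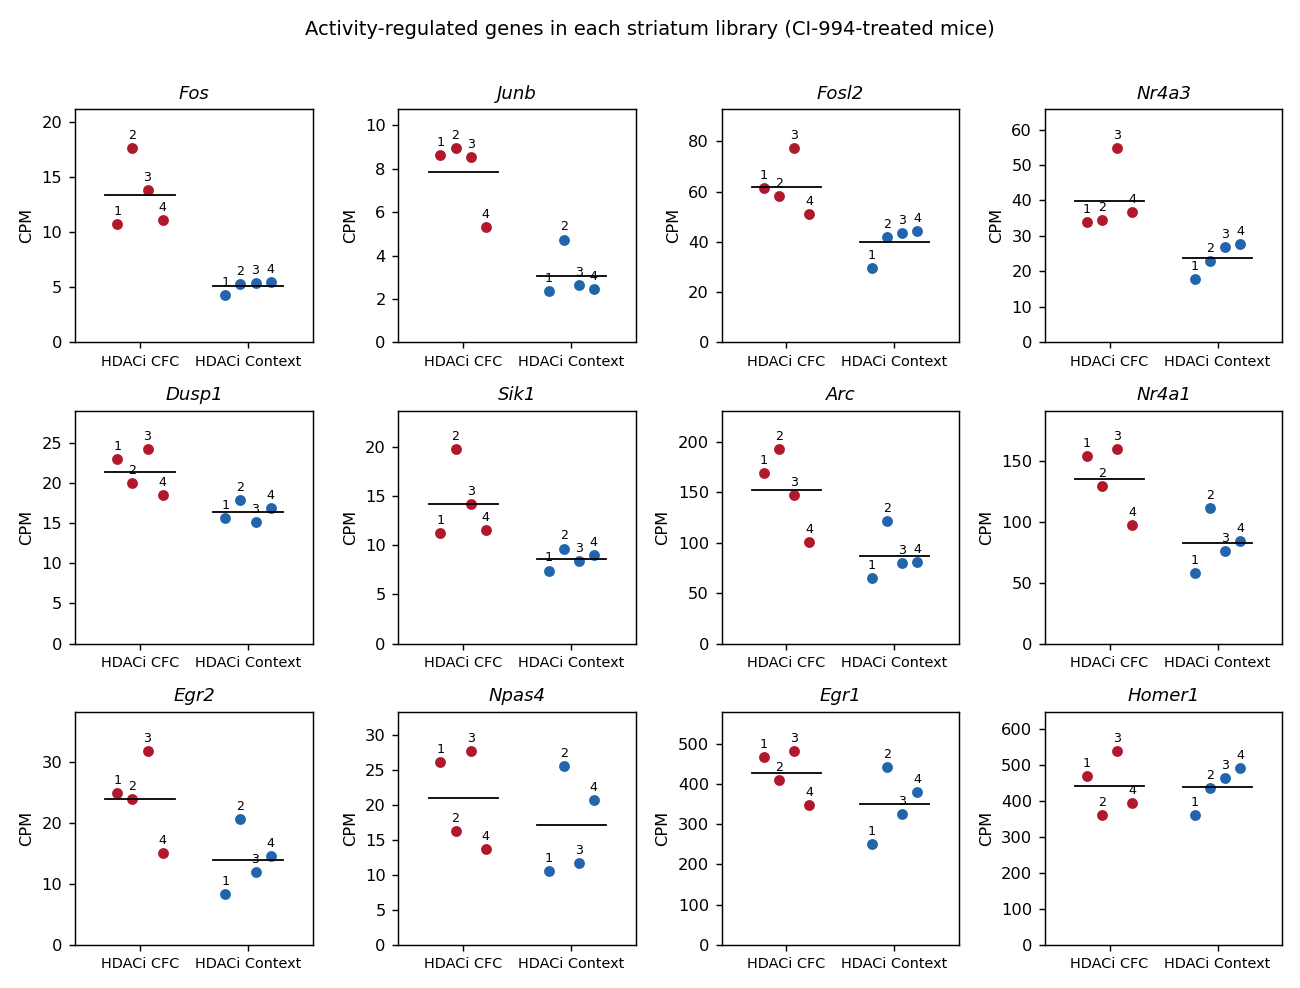
CPM (y axis) of 12 activity-regulated genes in HDACi CFC and HDACi Context striatum (x axis), each point 1 library with its replicate number and each line the group mean. Fos, Junb, Fosl2, Nr4a3, Dusp1 and Sik1 separate the groups, Arc, Nr4a1 and Egr2 overlap in 1 or 2 libraries, and Npas4, Egr1 and Homer1 interleave.

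Delayed activity effectors were mixed. All 25 listed genes were tested, 0 passed, 19 were above 0 and 6 below, and the median log2 fold change was 0.30 (0.18 without HDACi CFC replicates 2 and 4). Of the members, 2 (Sik1 and Trib1) did not overlap and were higher in HDACi CFC, as were 1.22% of all genes. At an unadjusted p under 0.05 there were 5 higher members (Nptx1, Plk3, Sik1, Trib1 and Pim1), against 2.64% of all genes, and 0 lower. Of these, Nptx1 and Plk3 were highest in HDACi CFC replicates 2 and 4, and Pim1 was highest in replicates 1 and 3. Sik1, a kinase that restrains CREB coactivators, stood at 11.3, 19.7, 14.2 and 11.5 CPM in HDACi CFC and at 7.43, 9.66, 8.44 and 8.98 CPM in HDACi Context. Every HDACi CFC library was higher, replicate 2 most of all, and the log2 fold change was 0.67 (SE 0.25, adjusted p = 0.839, edgeR quasi-likelihood test). That of Sik1 was 0.56 without HDACi CFC replicates 2 and 4. Trib1, a pseudokinase, stood at 13.6, 18.3, 16.8 and 16.3 CPM in HDACi CFC and at 9.77, 12.5, 10.3 and 12.5 CPM in HDACi Context, with no overlap and a log2 fold change of 0.48 (SE 0.14, adjusted p = 0.839, edgeR).

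Several effectors with the highest fold changes followed the cortical markers. Bdnf, the brain-derived neurotrophic factor, stood at 0.421, 8.35, 0.0720 and 7.05 CPM in HDACi CFC and at 0.429, 0.398, 0.626 and 0.584 CPM in HDACi Context. The high values were those of HDACi CFC replicates 2 and 4 alone, and replicates 1 and 3 did not exceed HDACi Context. The log2 fold change of Bdnf was 2.88 (SE 1.41, adjusted p = 0.839, edgeR), and without those libraries it was -1.04. In hippocampus, Bdnf ran from 58.4 to 86.2 CPM. Nptx1, a pentraxin that clusters AMPA receptors, stood at 38.2, 205, 31.5 and 167 CPM in HDACi CFC and at 34.1, 46.9, 32.7 and 53.7 CPM in HDACi Context, and Nrn1, the neuritin gene, showed the same pair of high libraries with 26.3 and 24.6 CPM. Ptgs2, the inducible cyclooxygenase, had 14.03 and 13.97 CPM in HDACi CFC replicates 2 and 4, against 4.34 to 7.16 CPM in HDACi Context. Homer1, a postsynaptic scaffold, stood at 470.1, 361, 540.5 and 395 CPM in HDACi CFC and at 360.0, 436, 465 and 493 CPM in HDACi Context, interleaved, with a log2 fold change of -0.03 (95% interval -0.37 to 0.32).

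Feedback genes of the MAP kinase pathway had 17 of 18 members tested, 0 passing, 14 above 0 and 3 below, with a median log2 fold change of 0.16. In 3 of them, the phosphatases Dusp1, Dusp5 and Dusp10, all HDACi CFC libraries were higher, against 1.22% of all genes. Dusp5 stood at 10.6, 13.1, 11.6 and 11.3 CPM in HDACi CFC and at 7.86, 9.59, 8.11 and 9.16 CPM in HDACi Context. Dusp10 stood at 6.38, 9.55, 6.51 and 7.15 CPM in HDACi CFC, above a narrow 5.39 to 5.43 CPM in HDACi Context. The list median was 0.11 without HDACi CFC replicates 2 and 4. Of the class I histone deacetylases, the targets of the drug, Hdac1, Hdac2 and Hdac3 were looked at, and their 95% intervals included 0. Hdac1 stood at 13.0, 17.8, 14.5 and 16.98 CPM in HDACi CFC and at 14.6, 14.5, 14.4 and 14.3 CPM in HDACi Context (log2 fold change 0.06, 95% interval -0.13 to 0.25, edgeR). It was highest in HDACi CFC replicates 2 and 4, and without them its log2 fold change was -0.079. Hdac2 had a log2 fold change of -0.14 (95% interval -0.35 to 0.06), and Hdac3 one of -0.12 (95% interval -0.27 to 0.04). All of these intervals lie within a 1.5-fold change.

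Neocortical neuron markers were high in HDACi CFC replicates 2 and 4. Of 16 markers tested 0 passed, 12 were above 0 and 4 below, and the median log2 fold change was 1.07. Their mean log2 CPM was 2.52, 4.47, 1.91 and 4.34 in HDACi CFC libraries and 2.605, 2.78, 2.63 and 3.22 in HDACi Context libraries, so replicates 2 and 4 were the highest and replicates 1 and 3 the lowest of the 8. Summed over the list, the level was 362, 740.2, 356 and 708 CPM in HDACi CFC and 387, 364, 379 and 419.8 CPM in HDACi Context. Tbr1, a factor of deep-layer neurons, stood at 2.52, 29.5, 0.612 and 35.7 CPM in HDACi CFC and at 2.94, 4.89, 2.92 and 8.36 CPM in HDACi Context. Neurod6, a factor of pyramidal neurons that is also on the hippocampal list, stood at 1.26, 25.0, 0.396 and 21.3 CPM in HDACi CFC and at 0.660, 2.71, 0.805 and 4.43 CPM in HDACi Context. In both genes, HDACi Context replicate 4 was the highest library of its group.

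Markers on that list that striatal cells also express did not follow the pattern. Lamp5, a lysosomal membrane protein of forebrain neurons, stood at 97.2, 76.5, 91.1 and 87.6 CPM in HDACi CFC and at 114, 87.8, 111 and 102 CPM in HDACi Context. Foxp2, which medium spiny neurons express, had a log2 fold change of -0.13, and Etv1 one of -0.04. Leaving out HDACi CFC replicates 2 and 4 gave the neocortical list a median of -0.42, with 3 of 16 markers above 0. It was 0.67 without replicate 2 alone and 0.77 without replicate 4 alone.

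Medium spiny neuron markers mirrored this in the opposite direction. All 20 were tested, 0 passed, 0 were above 0 and 20 below, with a median log2 fold change of -0.23. The mean log2 CPM of the list was 8.61, 7.88, 8.46 and 8.17 in HDACi CFC and 8.44, 8.58, 8.55 and 8.54 in HDACi Context. Replicates 2 and 4 of HDACi CFC were the lowest of the 8 libraries, and replicate 1 was the highest. Summed CPM was 15862, 9913, 14382 and 12222 in HDACi CFC and 14254, 16138, 15406 and 14884 in HDACi Context. Drd1 stood at 360.0, 249.95, 374 and 323 CPM in HDACi CFC and at 332, 376, 384 and 398 CPM in HDACi Context. Drd2 stood at 381, 225, 323 and 292 CPM in HDACi CFC and at 340.2, 391, 365 and 347 CPM in HDACi Context. Ppp1r1b, the dopamine-regulated phosphatase inhibitor, was lowest in HDACi CFC replicate 2, at 1632, 1031, 1499.8 and 1334 CPM in HDACi CFC and 1533, 1637, 1667 and 1555 CPM in HDACi Context.

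The other abundant markers of this list had similar profiles. Pde10a, the striatal phosphodiesterase, stood at 2707, 1676, 2534 and 2007 CPM in HDACi CFC and at 2410.0, 2843, 2691 and 2628 CPM in HDACi Context, with a log2 fold change of -0.28. Scn4b, a sodium channel subunit, had -0.26, and Adcy5, the striatal adenylyl cyclase, had -0.17. Without HDACi CFC replicates 2 and 4 the median of the medium spiny list was 0.00, with 11 markers above 0 and 9 below. It was -0.11 without replicate 2 alone and -0.20 without replicate 4 alone. In bulk tissue, fewer cells of a type and less RNA per cell cannot be told apart.

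Hippocampal excitatory markers were less clear. Of 18 listed genes 14 were tested, 0 passed, 10 were above 0 and 4 below, and the median log2 fold change was 0.36. Mean log2 CPM of the list was 3.01, 4.08, 2.66 and 3.67 in HDACi CFC and 2.99, 3.02, 2.77 and 3.11 in HDACi Context, again highest in HDACi CFC replicates 2 and 4. Members high in those replicates included Neurod6, which is also on the neocortical list, and Neurod2 at 0.806, 12.7, 0.180 and 11.1 CPM in HDACi CFC. Mpped1, a metallophosphoesterase gene of forebrain neurons, stood at 47.6, 97.9, 39.2 and 94.2 CPM in HDACi CFC and at 53.7, 51.0, 39.4 and 51.5 CPM in HDACi Context. Markers of the dentate gyrus did not separate the same libraries. Prox1, the dentate granule cell factor, stood at 18.6, 22.9, 22.6 and 20.3 CPM in HDACi CFC and at 14.5, 19.0, 17.2 and 18.5 CPM in HDACi Context, far under its 214 to 293 CPM in hippocampus. Dsp, which marks granule cells, was at 0.386 to 0.740 CPM in HDACi CFC and at 0.268 to 0.461 CPM in HDACi Context, against 71.3 to 112 CPM in hippocampus. The median of the hippocampal list was -0.11 without HDACi CFC replicates 2 and 4. The abundant members Zbtb20, Wfs1 and Trps1 had log2 fold changes of -0.03, -0.36 and -0.06.

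**Figure D4:**
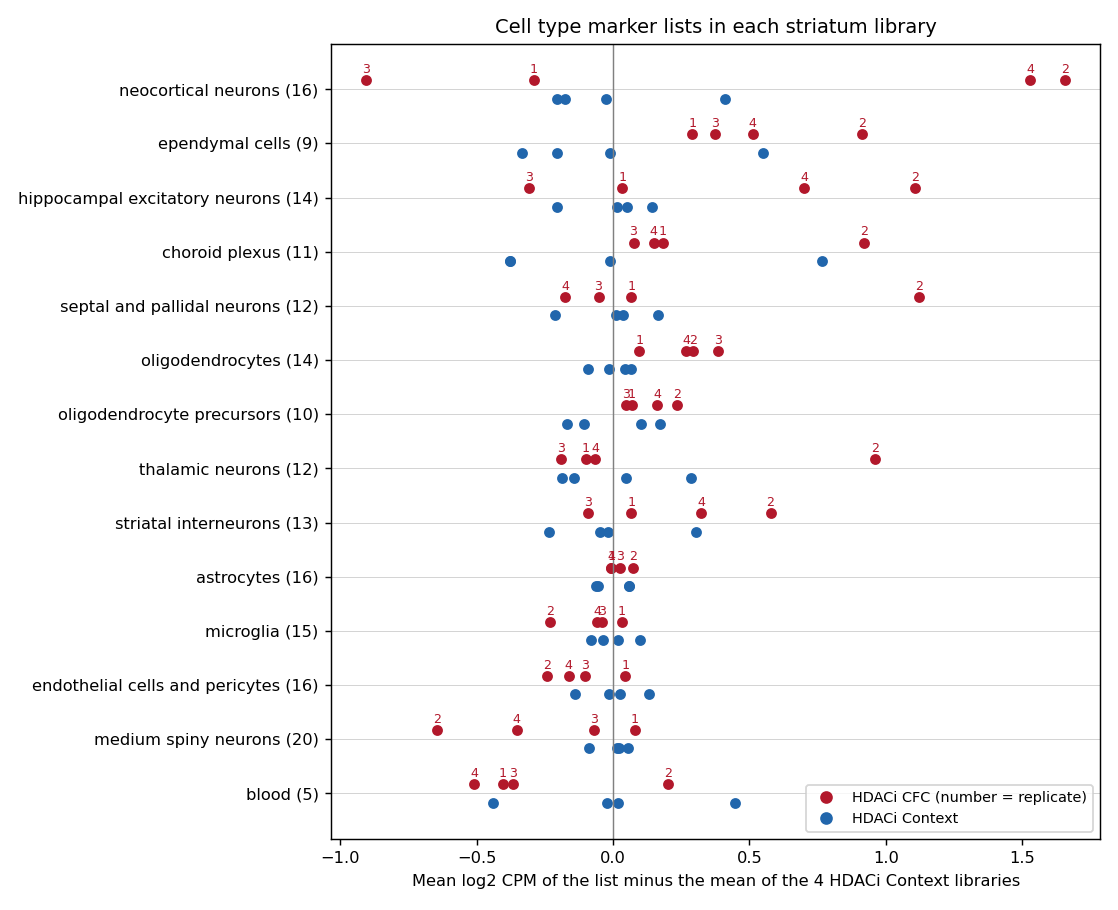
Mean log2 CPM of each cell type marker list in each library, as the difference from the mean of the 4 HDACi Context libraries (x axis), by list (y axis, number of genes tested in brackets). HDACi CFC replicates 2 and 4 lie to the right for neocortical and hippocampal markers and to the left for medium spiny markers, and replicate 2 lies furthest to the right for septal and pallidal markers.

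HDACi CFC replicate 2 differed further from replicate 4 in members of the septal and pallidal marker list. Zic1, a transcription factor of septal neurons, stood at 13.0, 118, 12.7 and 12.8 CPM in HDACi CFC and at 14.3, 11.8, 14.5 and 17.5 CPM in HDACi Context. Zic2, a relative of it, stood at 1.96, 23.9, 1.22 and 2.08 CPM in HDACi CFC and at 1.91, 1.56, 1.70 and 2.09 CPM in HDACi Context. Zic4 and the cation channel gene Trpc4 were also highest in that library, at 24.0 and 39.1 CPM. A single library held the high values, and the other 7 lay close together. The list, which shares Penk with the medium spiny list and Zic1 with the thalamic list, had 12 members tested, 0 passing, 8 above 0 and 4 below, and a median log2 fold change of 0.31. Without HDACi CFC replicate 2 the median was -0.05, and without replicates 2 and 4 it was -0.0041. Mean log2 CPM of the list was 3.75, 4.81, 3.63 and 3.51 in HDACi CFC and 3.85, 3.47, 3.72 and 3.70 in HDACi Context. Summed CPM, which includes Penk, was instead lowest in HDACi CFC replicate 2. It was 1696, 1326, 1556 and 1374 in HDACi CFC and 1643, 1624, 1798 and 1724 in HDACi Context. On the thalamic list, replicates 2 and 4 of HDACi CFC had mean log2 CPM of 4.14 and 3.11.

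Oligodendrocyte markers were slightly higher without following the cortical pattern. All 14 tested members were above 0, 0 passed, and the median log2 fold change was 0.23, against -0.11 for Veh CFC over Veh Context. Mean log2 CPM of the list was 7.16, 7.36, 7.45 and 7.33 in HDACi CFC and 7.11, 7.13, 7.05 and 6.97 in HDACi Context, without overlap. The vehicle libraries spanned 6.42 to 7.25. Summed CPM did overlap, with 7396 in HDACi CFC replicate 1 and 7415 in HDACi Context replicate 2. It spanned 4832 to 8684 in Veh CFC and 6408 to 8918 in Veh Context. Mag, a myelin glycoprotein, stood at 189, 251, 199 and 209 CPM in HDACi CFC and at 175, 184, 142 and 128 CPM in HDACi Context, with no overlap. Cldn11, a tight junction protein of myelin, stood at 122, 148, 145 and 145 CPM in HDACi CFC and at 110.0, 109, 93.3 and 96.6 CPM in HDACi Context. It did not overlap either, and its log2 fold change was 0.41 (SE 0.16, adjusted p = 0.839, edgeR). Mag and Cldn11 were the only 2 of the 14 markers without overlap, a pattern that 1.22% of all genes had on the higher side. Mbp, the myelin basic protein gene, had a log2 fold change of 0.32 with overlapping libraries. Without HDACi CFC replicates 2 and 4 the oligodendrocyte median was 0.26. It was 0.13 in replicates 1 and 2 alone and 0.33 in replicates 3 and 4 alone.

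Ependymal markers, the genes of the ciliated cells that line the ventricle beside the striatum, had 9 of 10 members tested, 0 passing and all 9 above 0, with a median log2 fold change of 0.57 (0.35 without HDACi CFC replicates 2 and 4). Foxj1, the factor that drives motile cilia, stood at 9.04, 15.4, 9.57 and 10.3 CPM in HDACi CFC and at 5.81, 12.1, 5.49 and 5.78 CPM in HDACi Context. HDACi Context replicate 2 was within the HDACi CFC range, and the other 3 HDACi Context libraries were below it. Whether the myelin and ependymal values and the activity genes have a shared source in the dissection was not tested.

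**Figure D5:**
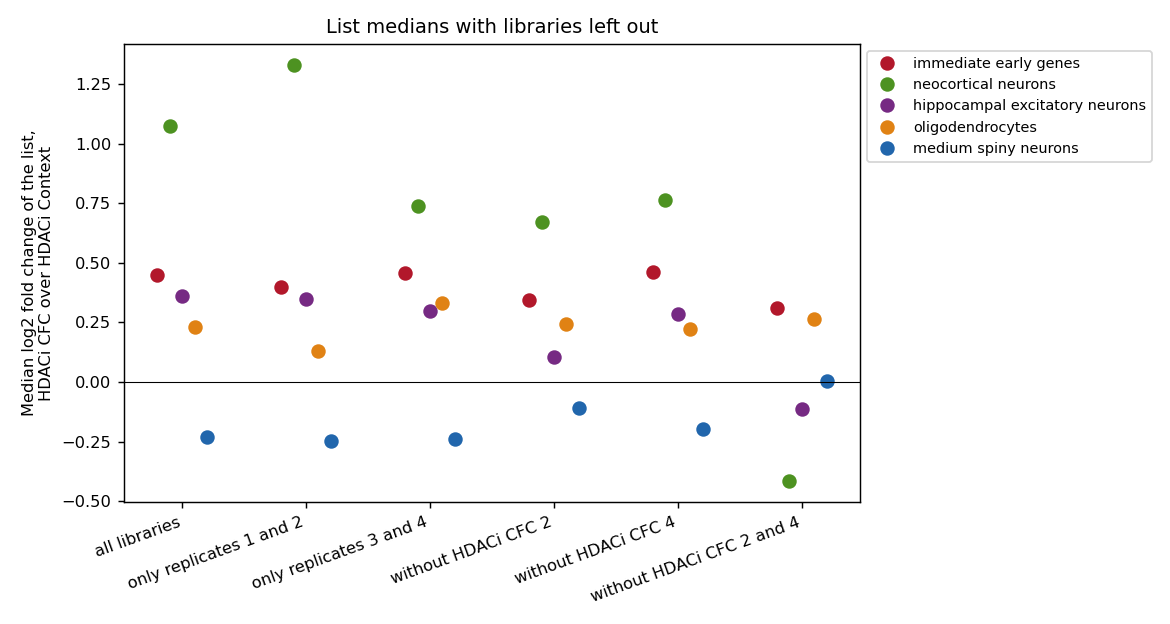
Median log2 fold change of HDACi CFC over HDACi Context (y axis) for 5 gene lists, with all libraries and with libraries left out (x axis). The neocortical median turns to -0.42 and the medium spiny median to 0.00 without HDACi CFC replicates 2 and 4, while the immediate early median is 0.31 and the oligodendrocyte median is 0.26.

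Genes of dopamine and cAMP signalling had 8 of 32 members above 0 and 24 below (0 passed, median log2 fold change -0.16, or 0.0061 without HDACi CFC replicates 2 and 4), and several of them are medium spiny markers. Opioid and adenosine signalling had 2 of 9 above 0 and 7 below (0 passed, median -0.13, or -0.12 without those replicates). Oprk1, the kappa opioid receptor to which dynorphin binds, stood at 28.3, 27.2, 25.7 and 32.04 CPM in HDACi CFC and at 41.1, 32.8, 38.0 and 38.6 CPM in HDACi Context. The groups did not overlap, with HDACi CFC lower, a pattern that 1.58% of all genes had. The log2 fold change of Oprk1 was -0.45 (SE 0.17, adjusted p = 0.839, edgeR), against 0.00 in vehicle mice. Oprk1 in HDACi CFC replicates 1 and 3, where medium spiny markers were not low, was also under HDACi Context. Whether tissue composition bears on Oprk1 was not tested. Pdyn, which encodes the precursor of dynorphin, stood at 148, 96.3, 122 and 107 CPM in HDACi CFC and at 162, 125, 146 and 161 CPM in HDACi Context, with replicate 1 of HDACi CFC inside the HDACi Context range (log2 fold change -0.36). Penk, the enkephalin precursor, stood at 1541, 916, 1406 and 1225 CPM in HDACi CFC and at 1480.5, 1479, 1650.0 and 1576 CPM in HDACi Context, lowest in HDACi CFC replicates 2 and 4.

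Stress, metabolic and housekeeping lists had medians between -0.19 and 0.10, and 0 of their members passed. Glucocorticoid-responsive genes had a median log2 fold change of 0.03 (12 above and 9 below 0 of 21). Sgk1, a kinase gene induced by corticosterone, stood at 181, 190.4, 277 and 268 CPM in HDACi CFC and at 246, 216, 187 and 239.7 CPM in HDACi Context, interleaved, and Fkbp5, the glucocorticoid receptor co-chaperone, had a log2 fold change of -0.01. Heat shock genes had a median of -0.07 (7 above and 13 below of 20), and inflammatory and NF-kappaB genes one of -0.04 (6 above and 7 below of 13 tested). Cholesterol biosynthesis had 0.10 (17 above and 5 below of 22), circadian clock genes -0.05 (6 above and 13 below of 19) and cytosolic ribosomal proteins 0.05 (30 above and 8 below of 38). Mitochondrially encoded genes had -0.19 (2 above and 10 below of 12 tested). Nuclear long non-coding RNAs had -0.15 (1 above and 9 below of 10 tested). Without HDACi CFC replicates 2 and 4 the sign turned for heat shock genes (0.11), cholesterol biosynthesis (-0.08) and circadian clock genes (0.02). The other medians were then 0.09 for glucocorticoid-responsive, -0.07 for inflammatory, 0.05 for ribosomal protein, -0.08 for mitochondrially encoded and -0.13 for nuclear long non-coding genes.

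Synaptic and chromatin lists had medians between -0.10 and 0.04, with 0 members passing. Glutamate receptors and postsynaptic scaffolds had a median log2 fold change of -0.02 (14 above and 21 below 0 of 35), GABA signalling 0.04 (11 above and 8 below of 19) and voltage-gated ion channels -0.10 (11 above and 24 below of 35). Histone deacetylases had 0.04 (7 above and 4 below of 11), and acetyltransferases and acetyl-lysine readers 0.01 (12 above and 10 below of 22). Among other cell types, astrocytes had 0.02 (9 above and 7 below of 16), oligodendrocyte precursors 0.14 (6 above and 4 below of 10) and microglia -0.08 (3 above and 12 below of 15). Endothelial cells and pericytes had -0.13 (2 above and 14 below of 16), striatal interneurons 0.08 (7 above and 6 below of 13) and thalamic neurons 0.10 (8 above and 4 below of 12). Choroid plexus had 0.35 (7 above and 4 below of 11 tested), and blood had -0.27 (0 above and 5 below of 5). Without HDACi CFC replicates 2 and 4 the sign turned for histone deacetylases (-0.07), striatal interneurons (-0.02), thalamic neurons (-0.07) and choroid plexus (-0.14). The medians were then -0.00085 for glutamate receptors, 0.00065 for GABA signalling, -0.02 for ion channels and 0.03 for acetyltransferases and readers. Astrocytes were then at 0.0099, oligodendrocyte precursors at 0.10, microglia at -0.02, endothelial cells and pericytes at -0.06 and blood at -0.41.

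Among genes with a mean of at least 1 log2 CPM and no clone name, the 12 with the smallest unadjusted p in each direction had log2 fold changes of 0.26 to 0.89 and of -0.92 to -0.19, and adjusted p of 0.839 (edgeR quasi-likelihood test, Benjamini-Hochberg). Cpox, an enzyme of haem synthesis (ENSMUSG00000022742, mm10 chromosome 16, bases 58670292 to 58717636, plus strand), stood at 26.4, 37.8, 31.2 and 34.1 CPM in HDACi CFC and at 25.0, 26.1, 23.0 and 24.6 CPM in HDACi Context. All HDACi CFC libraries were higher in Cpox, replicates 2 and 4 most, and the log2 fold change was 0.35 (SE 0.086), or 0.22 without those replicates. Agpat4, an acyltransferase of phospholipid synthesis, stood at 34.5, 55.9, 38.1 and 49.2 CPM in HDACi CFC and at 34.7, 33.5, 27.5 and 28.3 CPM in HDACi Context. It too was highest in replicates 2 and 4, with a log2 fold change of 0.47 (SE 0.12). Cln8, a transmembrane protein of the endoplasmic reticulum, had more even values, at 29.0, 32.6, 32.6 and 29.9 CPM in HDACi CFC and 24.6, 26.9, 23.6 and 25.2 CPM in HDACi Context. The 9 others on the higher side were Trib1, N4bp3, Itpkc, Efna5, Zfp395, Frmd6, Ccdc65, Zfp568 and Shisa4, with Ccdc65 the furthest at a log2 fold change of 0.89.

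On the lower side, Maml3, a coactivator of Notch signalling (ENSMUSG00000061143, mm10 chromosome 3, bases 51685907 to 52105076, minus strand), stood at 11.0, 11.8, 8.92 and 9.71 CPM in HDACi CFC and at 13.6, 15.99, 13.3 and 12.7 CPM in HDACi Context. No libraries overlapped, and the log2 fold change of Maml3 was -0.46 (SE 0.12, adjusted p = 0.839, edgeR). Shisa7, an auxiliary subunit of GABA-A receptors, stood at 259.6, 214, 249.7 and 253 CPM in HDACi CFC and at 298, 294, 276 and 267 CPM in HDACi Context, with no overlap and a log2 fold change of -0.26. Gpr139, an orphan receptor that is strongly expressed in the habenula and striatum, stood at 15.4, 11.9, 10.0 and 7.37 CPM in HDACi CFC and at 24.3, 13.8, 25.6 and 18.5 CPM in HDACi Context. HDACi CFC replicate 1 was above HDACi Context replicate 2, and Gpr139 had the largest fold change of the 12 at -0.92 (95% interval -1.47 to -0.37). The smallest fold change was that of Ttc4, a co-chaperone, at 42.1, 43.1, 42.3 and 45.1 CPM in HDACi CFC and 49.8, 48.7, 46.7 and 46.0 CPM in HDACi Context (log2 fold change -0.19). The 8 others were Tmem138, Nit2, Btbd19, Me2, Mppe1, Tmem218, Ankzf1 and Adgrl2.

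The 2 genes called by DESeq2's Wald test lie together on mm10 chromosome 13, and they were singled out with their values known. Gm6556 (ENSMUSG00000097806, bases 15440302 to 15463736, minus strand) stood at 6.94, 3.81, 4.75 and 4.20 CPM in HDACi CFC and at 11.6, 7.67, 10.8 and 8.76 CPM in HDACi Context. Every HDACi CFC library was lower. Its log2 fold change was -1.01 (SE 0.19, adjusted p = 0.839) by edgeR's quasi-likelihood test, and DESeq2 gave an adjusted p of 0.00167. Over all the alternatives the adjusted p ran from 0.00167 to 1. Gm26645 (bases 15459980 to 15461295, minus strand) lies within Gm6556 on the same strand, so the pair can share reads, and stood at 7.61, 5.11, 5.61 and 5.67 CPM in HDACi CFC and at 13.3, 8.11, 12.3 and 11.3 CPM in HDACi Context (DESeq2 adjusted p = 0.00458).

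Gm6556 overlaps, on the opposite strand, the start of Gli3, a transcription factor of hedgehog signalling (bases 15463235 to 15730026, plus strand). Gli3 stood at 25.2, 21.0, 21.4 and 24.0 CPM in HDACi CFC and at 29.2, 27.1, 29.5 and 25.7 CPM in HDACi Context. It did not overlap between the groups either and was lower by less, with a log2 fold change of -0.32 (SE 0.10, adjusted p = 0.839, edgeR). In hippocampus the log2 fold changes of the 3 genes were 0.15 for Gm6556, 0.16 for Gm26645 and 0.05 for Gli3. The difference between striatum and hippocampus for Gm6556 was -1.18 (SE 0.33, adjusted p = 1, edgeR). The difference between HDACi and vehicle in striatum for Gm6556 was -0.93 (SE 0.26, adjusted p = 1, edgeR). The log2 fold change of Gm6556 was -0.73 without HDACi CFC replicates 2 and 4.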

How the data were processed

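The deposited table holds raw counts per gene of 32 mouse brain libraries, prepared by the authors from polyadenylated RNA with a stranded kit, per the labels' protocols. Per the submitters' processing notes, mm10, STAR 2.6, bcl2fastq 2.20.0 and DESeq2 were used, in roles left unnamed. Which tool counted reads, and with which strand setting, is not given in the sources used here. Of 54146 gene identifiers, 54079 matched a symbol in the annotation, and the 67 others held at most 0.0183% of a striatum library.

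CPM were computed from library totals. A single edgeR 4.0.16 model in R 4.3.3 held the 16 striatum libraries (4 group means, TMM, filterByExpr, quasi-likelihood F test, two-sided, Benjamini-Hochberg, called at adjusted p under 0.05). All 32 libraries were fitted for the difference between regions. Log2 fold changes are HDACi CFC over HDACi Context, and log2 CPM are TMM-scaled. No overlap between groups was judged on TMM-scaled log2 CPM. The code was tested on simulated counts.

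Members and the 32 gene lists (18 pathway, 14 marker, 555 genes, 1 of them unmatched) were chosen with earlier results of these data known. Named genes are 15 chosen ones, the 12 called genes in each direction with the largest fold change (filled by smallest p, mean log2 CPM of at least 1, no clone names), the 3 members of each list with the smallest adjusted p under 0.05, and the 4 most abundant members of 3 marker lists. Others are list members or were chosen after their values were seen.

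Alternatives were other scalings, DESeq2 1.42.0, no low-count filter, a replicate block, subsets of replicates, only 8 libraries, offsets for GC content and length, and leaving out single libraries. Leaving out vehicle libraries was added after the data were seen.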

Additional observations from a re-analysis of the deposited data

Results flagged for a closer look

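In groups of 4 libraries, a value was listed here when its gap to the nearest other library exceeded Dixon's 95% critical share of the group's range. Of 172 groups examined 10 met this, and chance gives about 1 in 20.

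Fos was low in HDACi Context replicate 1, at 4.26 CPM against 5.32 to 5.44 CPM in the others of its group. Junb was low in HDACi CFC replicate 4, at 5.32 CPM against 8.53 to 8.95 CPM, and high in HDACi Context replicate 2, at 4.74 CPM against 2.34 to 2.62 CPM. Zfp395 was high in HDACi CFC replicate 2, at 6.03 CPM against 3.86 to 4.14 CPM. Zfp568 was high in HDACi Context replicate 3, at 1.22 CPM against 0.868 to 0.922 CPM. Ankzf1 was low in HDACi CFC replicate 2, at 21.0 CPM against 24.9 to 25.5 CPM.

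Among summed levels of lists, thalamic neuron markers reached 441 CPM in HDACi CFC replicate 2, against 204 to 210.0 CPM in the rest of that group. This list holds Zic1, which was at 118 CPM in that library. The mean log2 CPM of the list was also highest there, at 3.08, 4.14, 2.98 and 3.11 in HDACi CFC replicates 1 to 4. Oligodendrocyte markers were at 7396 CPM in HDACi CFC replicate 1, against 8575 to 8815 CPM in the 3 others. Ependymal markers were at 83.4 CPM in HDACi Context replicate 2, against 48.1 to 52.0 CPM. GABA signalling genes were at 4546 CPM in HDACi Context replicate 2, against 4816 to 4870.0 CPM.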

How the results depend on the processing

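The count of 0 calls for HDACi CFC against HDACi Context held with DESeq2 size factors, library size alone, no low-count filter, a replicate block, a term for replicates 1 and 2 against 3 and 4, either pair of replicates alone, HDACi CFC replicates 2 and 4 left out, only the 8 libraries and offsets for GC content and length. The DESeq2 Wald test gave 2. Leaving out 1 library gave 0 to 1 calls, the 1 being Gm6556 (adjusted p = 0.0306, edgeR) without HDACi CFC replicate 1. It gave 0 to 0 for the vehicle comparison and for the difference between drug and vehicle. Unadjusted counts there ran from 185 to 923 and from 277 to 981, both highest without Veh CFC replicate 3. For the difference between regions it gave 0 to 5, with 5 without hippocampus HDACi CFC replicate 1 and 1 (Me2) without striatum HDACi CFC replicate 1. Genes at an unadjusted p under 0.05 moved from 988 to 345 without HDACi CFC replicates 2 and 4, to 383 without replicate 2 alone, to 1590 without replicate 1, to 1793 without replicate 3, to 552 without HDACi Context replicate 3 and to 1556 with the term for pairs of replicates. Deviations from the group means correlated at 0.037, -0.033, 0.18 and 0.21 between HDACi CFC and HDACi Context libraries of the same number. The best match had the same number for HDACi CFC replicates 3 and 4, and another number for replicates 1 and 2. The replicate block gave 0 calls and 1465 genes at an unadjusted p under 0.05. Library size alone moved non-overlapping genes to 322 higher and 178 lower, against 222 and 289. Log2 fold changes near 0 turned sign for Homer1, Zbtb20 and Etv1 with library size alone (0.0102, 0.0093 and 0.0043), for Homer1 and Etv1 with replicates 1 and 2 (0.036 and 0.016) and for Zbtb20 with replicates 3 and 4 (0.23). Without HDACi CFC replicates 2 and 4, larger values turned sign too. They went from 2.88 to -1.04 for Bdnf, from 2.27 to -1.44 for Slc17a7 and from 0.46 to -0.17 for Mpped1. The sign also turned in that fit for Hdac1 (-0.079), Homer1 (0.20), Etv1 (0.12), Zbtb20 (0.079), Trps1 (0.070), Adcy5 (0.056) and Foxp2 (0.040). Leaving out 1 library turned Zbtb20 (lowest -0.141, highest 0.149), Homer1 (-0.149 to 0.0701), Etv1 (-0.108 to 0.0306) and Trps1 (-0.139 to 0.00887). The causes were not tested. With only the 8 libraries the neocortical median was 0.66, and 17611 genes passed the filter in that fit, against 18256. Genes with few counts have wide intervals, and nothing here bears on a difference below the sizes those intervals exclude.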
